A study of Homo sapiens with 8 samples.

Results

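The subject is a set of 10 transcription factors and cofactors that set up or end the B-cell program: PAX5, EBF1, TCF3, ID2, POU2F1, POU2F2, POU2AF1, BCL6, IRF4 and PRDM1. Their members on the array were all probes whose RefSeq or Ensembl identifier leads to one of these symbols. This gave 13 probes of 41000, for 9 of the 10 genes, out of 16557 genes with a matched probe. BCL6 matched no probe in this way and is not described further by level. Only 23958 of the 41000 probes were matched to a gene, so probes of BCL6 or another member may have been missed.

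The probes were read in KM-H2, a cell line derived from a Hodgkin lymphoma. The cells carried either the empty pMSCV-PIG vector (EV) or a sponge for miR-155 (miR-155-sp), whose transcript holds sites that bind this miRNA, and in both populations the GFP-positive cells had been sorted. From each population the total cellular RNA (T) and the RNA precipitated with an antibody against Argonaute 2 (Ago2-IP) were measured, so that there were 4 groups with 1 RNA sample each. Each RNA was labelled once with Cy3 and once with Cy5, and each array held the T and the IP RNA of 1 population in opposite dyes. The labellings are technical, so the differences below have no replicate check and no test was made. In place of an error each ratio is followed by its value in either dye orientation, first with IP in Cy5 and then with IP in Cy3. Both populations are 1 line, so values describe KM-H2 cells and not Hodgkin lymphoma in general.

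EBF1 and TCF3 specify B-cell precursors, and PAX5 commits them to the lineage. TCF3 is an E protein that binds DNA at E-boxes, and ID2 pairs with E proteins and keeps them off DNA. POU2F1 and POU2F2 bind the octamer motif and recruit POU2AF1 to it. BCL6 holds the germinal center program, while IRF4 and PRDM1 drive plasma cell differentiation. In Hodgkin lymphoma cells much of the B-cell program is known to be silenced, and IRF4 is known to be abundant. Ago2 carries miRNAs to mRNAs with matching sites, so an mRNA enriched in the Ago2-IP fraction is taken as a miRNA target.

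The miRNA that the sponge is meant to capture is shown because it defines the contrast between the cell populations. Its mature sequence from RefSeq (GRCh38.p14, chr21:25573983-25574006, plus strand) has the seed, bases 2 to 8, in capitals. A site for this seed reads AGCATTA in an mRNA written as DNA, and no site in a member transcript was looked for here.
hsa-miR-155-5p: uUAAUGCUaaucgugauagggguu

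All 4 arrays lay on 1 slide. Between 58.9% and 61.95% of the gene spots in the Cy3 channels were well above background, and in the Cy5 channels between 38.83% and 43.44%. Of the Hodgkin lymphoma markers, TNFRSF8, FUT4, CCL17 and TRAF1 were well above background in all 4 total RNA channels and CCL22 in none. Of the B-cell markers described, CD79A was so in all 4, while CD79B and PAX5 were in no total RNA channel and MS4A1 in 1. Of the markers of other cells, CSF1R was well above background in all 4 total RNA channels, CD14 in 3, CD3E and CD3G in 2, CD3D and CD8A in 1, and LYZ and all markers of NK and erythroid cells in none.

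PAX5, read with 1 probe, was at background in these cells, and TCF3, ID2, IRF4, PRDM1 and POU2F1 were expressed. Of the 13 probes, 8 were detected well above background in all 8 channels, 11 in at least 4 channels and 1 in none. The 11 probes belong to 8 genes. Of these, 10 probes of 7 genes also had Cy3 and Cy5 labellings within 2-fold in all 4 samples and were retained, whereas 43.7% of all probes passed both filters. For the counts by channels alone no share over all probes was taken. All signals below are log2 values after quantile normalization. They are compared between channels of 1 probe and never between probes.

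**Figure D1:**
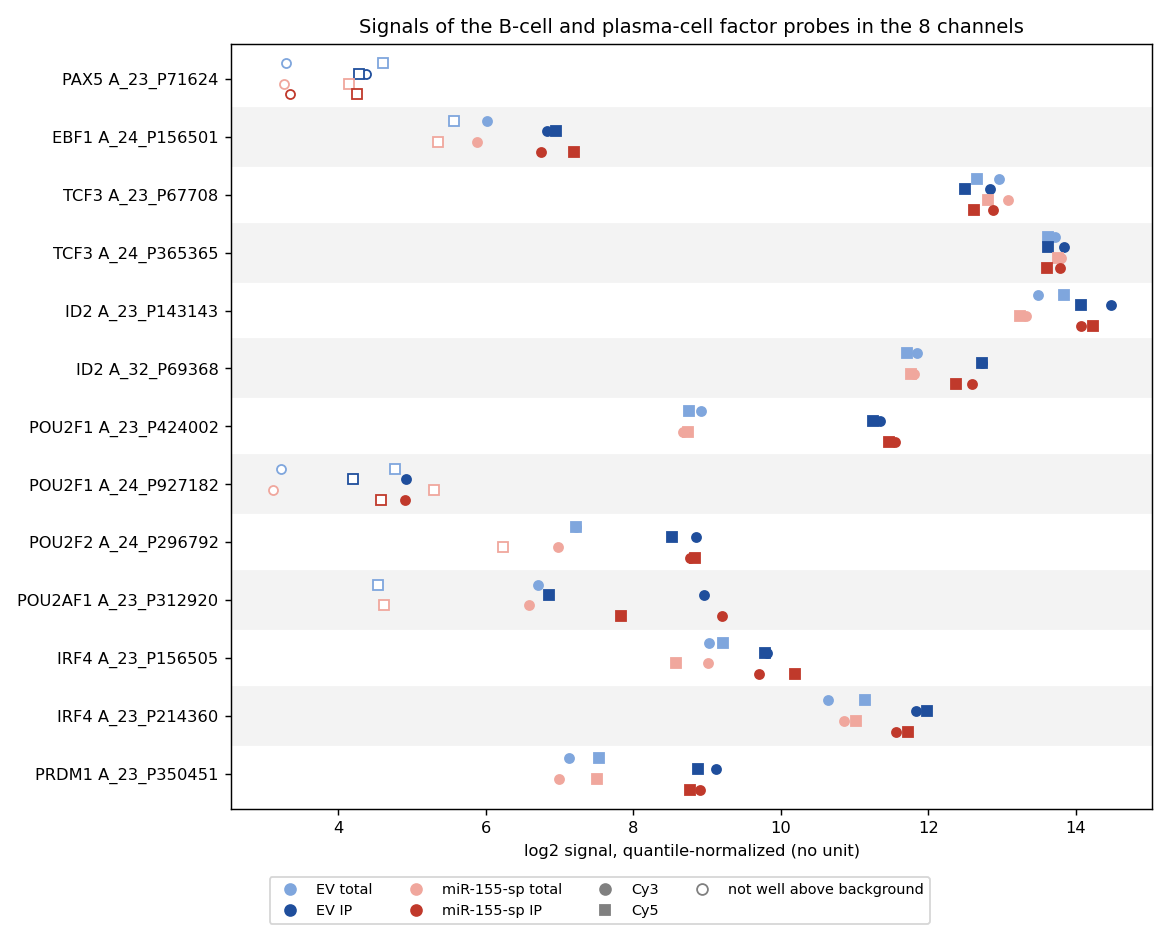
Quantile-normalized log2 signals (no unit) of the 13 probes in the 8 channels; circles are Cy3 and squares Cy5 labellings, pale colors total RNA, dark colors Ago2-IP RNA, blue EV and red miR-155-sp cells, and open symbols are channels not well above background. PAX5 has only open symbols, and the dark symbols of POU2F1 A_23_P424002, POU2F2 and PRDM1 lie to the right of their pale ones; levels of different probes cannot be compared.

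PAX5, the B-lineage commitment factor, was well above background in 0 of 8 channels. Its log2 signals in EV cells were 3.30 (T) and 4.38 (IP) in Cy3 and 4.61 (T) and 4.28 (IP) in Cy5. In miR-155-sp cells they were 3.26 and 3.34 in Cy3 and 4.15 and 4.26 in Cy5. All 8 values are those of a probe at background, so no IP/T ratio is given for PAX5.

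EBF1, the factor that acts with TCF3 upstream of PAX5, was dim and was measured in total RNA only in the Cy3 labellings. Its log2 signals in EV cells were 6.02 (T) and 6.83 (IP) in Cy3, and 5.57 (T, not well above background) and 6.95 (IP) in Cy5. In miR-155-sp cells they were 5.88 and 6.74 in Cy3, and 5.35 (not well above background) and 7.19 in Cy5. The 4 IP values all lay above the 4 total RNA values.

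TCF3, the E protein, was well above background everywhere with both of its probes, and IP and total RNA had nearly the same signal. With probe A_23_P67708 the log2 signals in EV cells were 12.96 (T) and 12.83 (IP) in Cy3 and 12.66 (T) and 12.50 (IP) in Cy5. The sponge cells gave 13.07 and 12.88 in Cy3 and 12.80 and 12.61 in Cy5. With probe A_24_P365365 the 8 values ran from 13.61 to 13.83, and the IP and total RNA values overlapped.

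ID2, the E protein inhibitor, was well above background in all 8 channels with both probes and had higher signals in IP than in total RNA. Probe A_23_P143143 gave 13.49 (T) and 14.47 (IP) in Cy3 and 13.84 (T) and 14.07 (IP) in Cy5 in EV cells. In miR-155-sp cells it gave 13.33 and 14.07 in Cy3 and 13.23 and 14.23 in Cy5. With probe A_32_P69368 the total RNA values lay between 11.71 and 11.85 and the IP values between 12.38 and 12.73. With either probe no IP value fell within the range of the total RNA values.

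POU2F1, the octamer factor found in most tissues, had the widest gap between IP and total RNA among the retained probes. Probe A_23_P424002 gave log2 signals of 8.91 (T) and 11.35 (IP) in Cy3 and 8.76 (T) and 11.25 (IP) in Cy5 in EV cells. The corresponding values of miR-155-sp cells were 8.68 and 11.55 in Cy3 and 8.74 and 11.46 in Cy5. The fractions were thus far apart in either dye and in both populations. Another POU2F1 probe, A_24_P927182, was well above background in 2 of 8 channels, both of them IP in Cy3, with 4.92 in EV and 4.90 in miR-155-sp cells. Its total RNA signals ran from 3.12 to 5.30 and were not well above background, so this probe gives no ratio to set beside that of A_23_P424002.

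POU2F2, the octamer factor typical of B cells, was well above background in 7 of 8 channels. Its log2 signals in EV cells were 7.22 (T) and 8.85 (IP) in Cy3 and 7.22 (T) and 8.52 (IP) in Cy5. In miR-155-sp cells they were 6.98 (T) and 8.77 (IP) in Cy3, and 6.24 (T, not well above background) and 8.83 (IP) in Cy5. The lowest of the total RNA values is thus the one channel in which the probe was not well above background.

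POU2AF1, the coactivator that POU2F1 and POU2F2 recruit, was well above background in 6 of 8 channels but its labellings were up to 2.16 log2 units apart, so it was not retained. Its log2 signals in EV cells were 6.70 (T) and 8.95 (IP) in Cy3, and 4.54 (T, not well above background) and 6.86 (IP) in Cy5. In miR-155-sp cells they were 6.59 and 9.20 in Cy3, and 4.62 (not well above background) and 7.83 in Cy5. In each dye the IP signal was the higher one.

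IRF4, which activates the plasma cell program, was well above background in all 8 channels with both probes. Probe A_23_P156505 gave 9.03 (T) and 9.81 (IP) in Cy3 and 9.22 (T) and 9.78 (IP) in Cy5 in EV cells. With the sponge it gave 9.01 and 9.71 in Cy3 and 8.58 and 10.20 in Cy5. With probe A_23_P214360 the total RNA values lay between 10.64 and 11.14 and the IP values between 11.56 and 11.98. The IP values of either probe all exceeded its total RNA values.

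PRDM1, the repressor that closes down the B-cell program in plasma cells, was well above background in all 8 channels. Its log2 signals in EV cells were 7.12 (T) and 9.13 (IP) in Cy3 and 7.53 (T) and 8.88 (IP) in Cy5. With the sponge they were 6.99 and 8.90 in Cy3 and 7.51 and 8.77 in Cy5. The IP and total RNA values did not overlap.

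The next comparison asks which of these mRNAs were enriched in the Ago2-IP fraction, for which the limit was an IP/T of 2. In EV cells 5 of the 10 retained probes reached it, against 14.8% of all retained probes. They were POU2F1, PRDM1, POU2F2, EBF1 and IRF4 A_23_P214360. In miR-155-sp cells 5 probes reached it as well, against 15.6% of all retained probes, with IRF4 A_23_P156505 in place of IRF4 A_23_P214360. A 4-fold excess of IP over T was reached in EV cells by 1 probe, POU2F1, against 5.91% of all retained probes. The median log2 IP/T of the 10 probes was 0.98 in EV and 1.01 in miR-155-sp cells, and that of all retained probes was -0.24 and -0.26. Such ratios are set against the signals of all other probes, and they give no absolute amount of bound RNA.

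**Figure D2:**
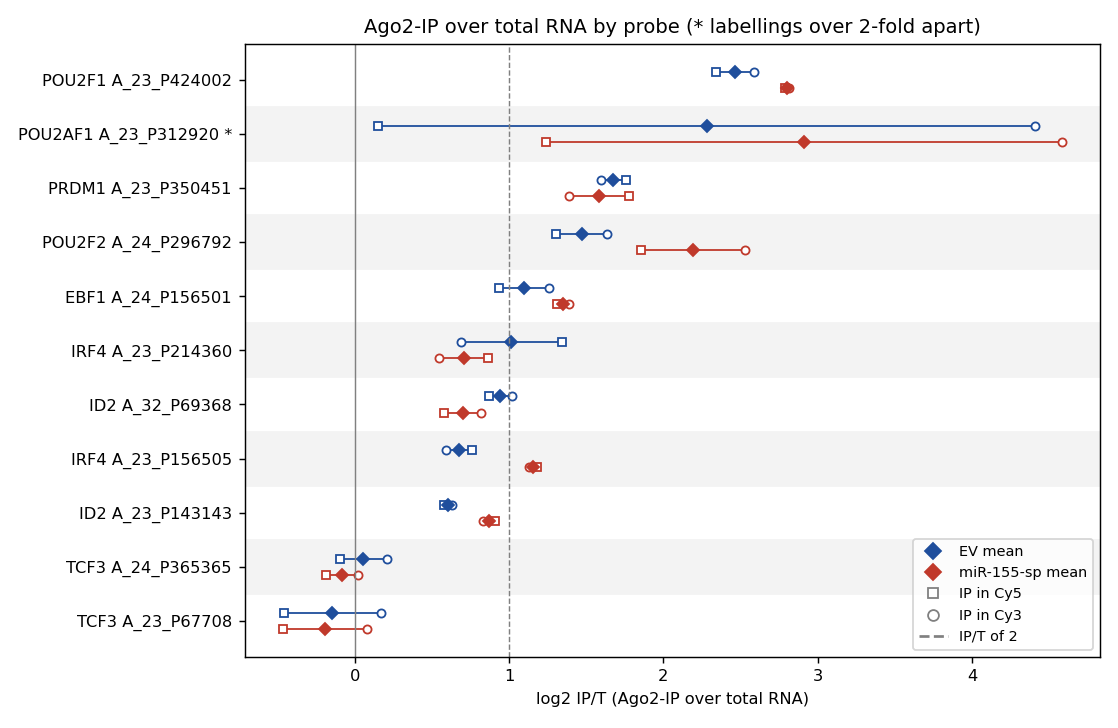
Log2 IP/T (horizontal axis) of the 11 probes well above background in at least 4 channels, in EV (blue) and miR-155-sp cells (red); diamonds are means, squares arrays with IP in Cy5 and circles arrays with IP in Cy3, joined by a line that shows the technical spread. POU2F1 is highest among the retained probes in both populations, TCF3 lies at 0, and POU2AF1, marked by an asterisk, has orientations far apart.

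The IP/T of POU2F1 was 5.52 in EV cells (5.06 and 6.02 in the 2 dye orientations) and 6.96 in miR-155-sp cells (6.90 and 7.02). This was higher than 96.3% of all retained probes in EV cells. PRDM1 followed with 3.20 (3.38 and 3.03) in EV and 2.996 (3.43 and 2.61) in miR-155-sp cells. POU2F2 had 2.77 (2.47 and 3.11) in EV and 4.56 (3.61 and 5.76) in miR-155-sp cells. EBF1 had 2.14 (1.91 and 2.39) in EV and 2.55 (2.48 and 2.62) in miR-155-sp cells. With IP in Cy3 the values of EBF1, and the 5.76 of POU2F2, divide by a Cy5 total RNA signal not well above background and are uncertain. In EV cells EBF1 passed 2 with such a value, and the Cy3 labelling alone gave it a log2 IP/T of 0.81 without and 0.86 with the sponge. Ratios of POU2F1, PRDM1 and POU2F2 in EV cells passed 2 in both orientations, while those of EBF1 and IRF4 A_23_P214360 did so in 1.

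The size of these ratios depended on the background correction, also for POU2F1 and PRDM1, which were well above background in all 8 channels. After normexp correction with loess normalization the EV ratio was 2.98 for POU2F1, 1.72 for PRDM1, 1.5 for POU2F2 and 1.09 for EBF1, so that of these probes only POU2F1 stayed above 2. With normexp and quantile normalization the values were 3.02, 1.97, 1.64 and 1.13. IRF4 A_23_P214360 and ID2 A_32_P69368 also reached 2 with loess, at 2.07 and 2.02, and had 1.81 and 1.78 with quantile normalization. In both forms POU2F1 kept the highest IP/T of the 10 retained probes in EV cells.

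ID2 and IRF4 were nearer to the limit, and their probes did not give the same answer. The ratio of ID2 was 1.52 (1.49 and 1.55) with probe A_23_P143143 and 1.92 (1.83 and 2.02) with probe A_32_P69368 in EV cells. In miR-155-sp cells the order of the ID2 probes was turned, with 1.83 (1.87 and 1.78) and 1.62 (1.49 and 1.77). IRF4 had 1.59 (1.69 and 1.5) with probe A_23_P156505 and 2.02 (2.53 and 1.61) with probe A_23_P214360 in EV cells. In miR-155-sp cells the IRF4 probes gave 2.23 (2.27 and 2.19) and 1.63 (1.82 and 1.46). For either gene, whether it reaches 2 depended on the probe, the cells, the dye orientation, the labelling or the background correction.

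TCF3 was not enriched. Its IP/T was 0.903 (0.726 and 1.12) with probe A_23_P67708 and 1.04 (0.934 and 1.16) with probe A_24_P365365 in EV cells. In miR-155-sp cells it was 0.874 (0.725 and 1.05) and 0.944 (0.878 and 1.02). The orientations lay on both sides of 1 for each probe and population. The 8 other retained probes had an IP/T above 1 on all 4 arrays, against 28.4% of all retained probes.

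The IP/T of POU2AF1 was 4.86 in EV cells, but the array with IP in Cy5 gave 1.11 and that with IP in Cy3 gave 21.2. In miR-155-sp cells it was 7.52, with 2.36 and 23.9. The values with IP in Cy3 and both means rest on Cy5 total RNA signals that were not well above background, so their size is uncertain. The Cy5 signals of this probe were lower than its Cy3 signals in every sample. Compared within 1 dye across arrays, its log2 IP/T was 2.25 in Cy3 and 2.31 in Cy5 for the EV cells. For the sponge cells these values were 2.62 and 3.20. After normexp correction the EV ratio was 1.46 with loess and 1.71 with quantile normalization.

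Ordered by IP/T in EV cells, the retained probes ran from POU2F1 over PRDM1, POU2F2, EBF1, IRF4 A_23_P214360, ID2 A_32_P69368, IRF4 A_23_P156505 and ID2 A_23_P143143 to the TCF3 probes. Between neighbours in this order, the ranges of the dye orientations were separate only for POU2F1 over PRDM1, POU2F2 over EBF1, ID2 A_32_P69368 over IRF4 A_23_P156505, and ID2 A_23_P143143 over TCF3 A_24_P365365. The other neighbours could not be told apart by their technical spread. In miR-155-sp cells POU2F1 was again first and POU2F2 stood before PRDM1, with separate ranges for POU2F1 over POU2F2 and for POU2F2 over PRDM1. Below POU2F1 the order in EV cells depended on the background correction. After normexp with loess, IRF4 A_23_P214360 (2.07) and ID2 A_32_P69368 (2.02) stood above PRDM1 (1.72) and POU2F2 (1.5). EBF1 (1.09) then stood below TCF3 A_24_P365365 (1.16). With normexp and quantile normalization PRDM1 (1.97) stayed above the former pair of probes, and POU2F2 (1.64) below them.

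The last comparison asks what changed with the sponge. None of the 10 retained probes changed its IP/T by 2-fold between the populations (0 probes, against 1.45% of all retained probes), and none changed 2-fold in total RNA (0 probes, against 0.363%). On the log2 scale the shift of IP/T from EV to miR-155-sp cells ran from -0.31 for IRF4 A_23_P214360 to 0.72 for POU2F2, with a median of 0.10. The median over all retained probes was -0.0025. The median size of the change was 0.26 for the 10 probes and 0.17 for all retained probes. Both orientations gave a lower IP/T with the sponge for 4 probes, against 30.3% of all retained probes, and a higher one for 5 probes, against 30.6%. Capture of a miRNA would be read as a lower IP/T of its targets in the sponge cells. The study proposes that the sponge left part of the miR-155 in this line unbound, and how much was captured was not tested here.

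**Figure D3:**
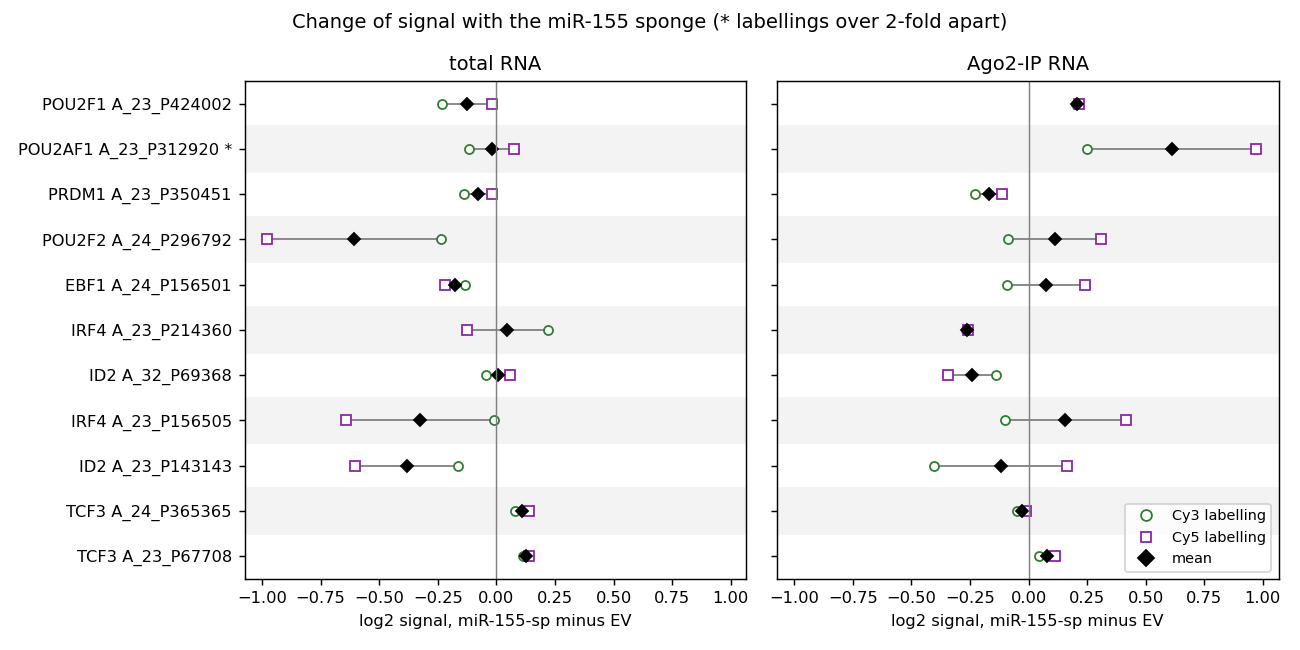
Change of the log2 signal, miR-155-sp minus EV, in total RNA (left) and in Ago2-IP RNA (right) for the 11 probes well above background in at least 4 channels; circles are Cy3 and squares Cy5 labellings, joined by a line, and diamonds their mean. The widest shift in total RNA is that of POU2F2, at -0.61, and its Cy5 value of -0.98 rests on a channel not well above background.

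Averaged over both labellings, POU2F2 had the largest change. Its log2 IP/T was higher by 0.72 in miR-155-sp cells (0.55 and 0.89 in the 2 orientations), which exceeds that of 97.7% of all retained probes. Its total RNA was lower by a log2 change of -0.61 (-0.24 in Cy3 and -0.98 in Cy5), while its IP signal differed by 0.11. The Cy5 value uses the miR-155-sp channel in which POU2F2 was not well above background. Compared within the Cy3 labelling its change of IP/T was 0.15, less than the sizes of -0.48 for IRF4 A_23_P214360 and 0.44 for POU2F1 there, and within the Cy5 labelling it was 1.29. After normexp correction the change of IP/T was 0.02 with loess and 0.25 with quantile normalization, and that of total RNA -0.07 and -0.19.

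POU2F1 had a higher IP/T in miR-155-sp cells by 0.33 on the log2 scale (0.45 and 0.22), with -0.13 in total RNA and 0.21 in IP. After normexp correction the POU2F1 change of IP/T was 0.12 with loess and 0.19 with quantile normalization, and that of total RNA 0.019 and 0.055. EBF1 had a change of 0.25 (0.38 and 0.13), with -0.18 in total RNA. Within the Cy3 labelling the EBF1 change of IP/T was 0.05. Within the Cy5 labelling, where its total RNA was not well above background, it was 0.46. After normexp correction it was 0.02 with loess and 0.12 with quantile normalization. PRDM1 differed by -0.09, and its orientations disagreed in sign (0.02 and -0.21). After normexp correction the PRDM1 change of IP/T was -0.26 with loess and -0.35 with quantile normalization. The PRDM1 change of total RNA went from -0.08 to 0.17 and 0.40 with these corrections. POU2AF1, not retained, had 0.63 (1.09 and 0.17), with -0.02 in total RNA.

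The probes of ID2 and of IRF4 gave mean changes of opposite sign, and the positive ones rested on the Cy5 labelling. For ID2 the log2 change of IP/T was 0.27 (0.33 and 0.20) with probe A_23_P143143 and -0.25 (-0.30 and -0.20) with probe A_32_P69368. For IRF4 it was 0.48 (0.43 and 0.54) with probe A_23_P156505 and -0.31 (-0.48 and -0.14) with probe A_23_P214360. Compared within the Cy3 labelling, the changes were all negative, -0.24 and -0.09 for the ID2 probes and -0.09 and -0.48 for the IRF4 probes in the same order. Within the Cy5 labelling they were 0.77 and -0.40 for ID2 and 1.06 and -0.14 for IRF4. No direction is therefore given for ID2 or IRF4. TCF3 changed by -0.05 (-0.001 and -0.09) and -0.14 (-0.09 and -0.19) with its probes.

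In total RNA 6 of the 10 retained probes were lower in miR-155-sp cells in both labellings, against 32.9% of all retained probes, and 2 probes, both of TCF3, were higher, against 32.4%. The log2 changes of total RNA ran from -0.61 to 0.13 with a median of -0.10, and the median over all retained probes was 0.00013. The median sizes of the change were about the same, 0.13 for the 10 probes and 0.14 for all. After normexp correction the median of the same 10 probes was 0.012 with loess and 0.041 with quantile normalization, so the direction of the median in total RNA depended on the background correction. For ID2 A_23_P143143 the change was -0.38 (-0.17 and -0.60) and for IRF4 A_23_P156505 -0.33 (-0.01 and -0.64), while the other probes of these genes gave 0.006 and 0.05. In bulk RNA, fewer cells that express a gene and less of its RNA per cell cannot be told apart.

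Further genes of the B-cell and plasma cell programs were read from 5 lists. No share over all genes or probes was taken of those detected, in no channel or at an IP/T of 0.5 or less. Those counts therefore do not tell whether the lists differ from other genes. Of 16 other B-lineage transcription factors, 15 had a probe, 11 were detected in at least 4 channels and 4 were well above background in no channel. The 4 were SPI1, BACH2, IRF8 and LMO2. The 15 retained probes of the list had a median log2 IP/T of -0.10 in EV cells, 6 of them reached an IP/T of 2 and 1 was at 0.5 or less. BCL11A, a zinc finger factor of lymphoid development, had the highest ratios of the list, with EV values of 7.01 and 7.06 for its probes and sponge values of 6.02 and 9.56. RUNX1 had 3.29 in EV and 3.50 in miR-155-sp cells. At the low end were SPIB with 0.582, TCF12 with 0.766 and IKZF1 with 0.789. TCF12 and TCF4 are E proteins like TCF3. The other TCF12 probe had 0.932, whereas TCF4 had an IP/T of 2.62 (2.60 and 2.63).

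**Figure D4:**
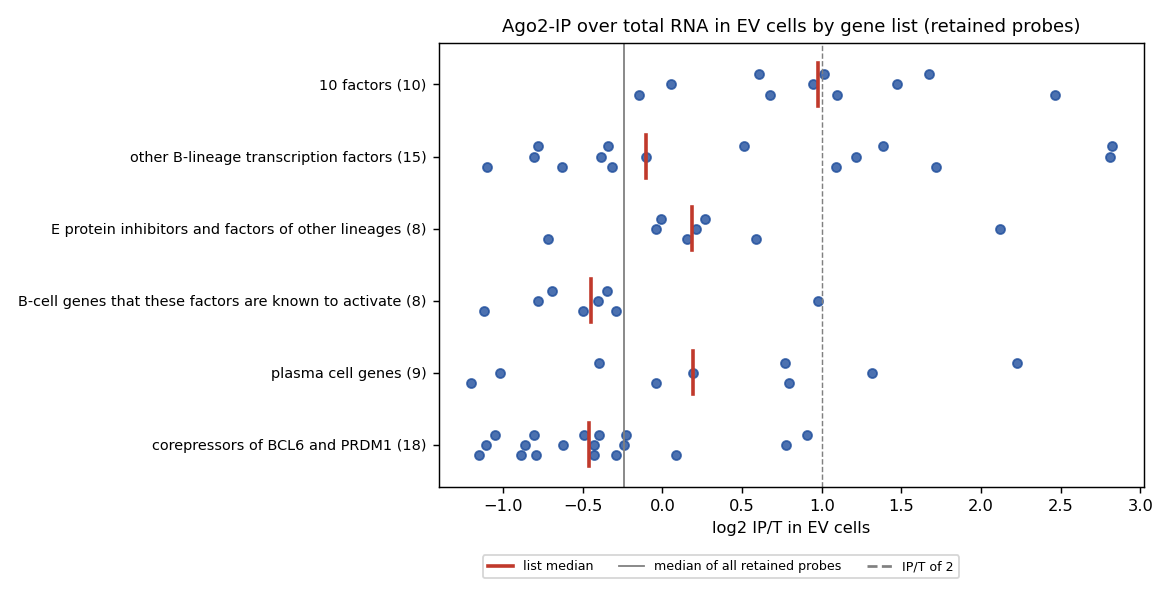
Log2 IP/T in EV cells (horizontal axis) of the retained probes of the 10 factors and of 5 gene lists; each point is a probe, its height within a row is arbitrary, the red bar is the list median and the gray line the median of all retained probes, -0.24. The median of the 10 factors is 0.98, and the list medians lie between -0.46 and 0.19.

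Of 10 genes for E protein inhibitors and factors of other lineages all had a probe, 8 were detected and 1 was in no channel. Among their 8 retained probes, 1 passed an IP/T of 2 in EV and the median log2 IP/T was 0.18. That probe was A_23_P411296 of CEBPB, a myeloid factor, with 4.35 in EV and 4.03 in miR-155-sp cells. The other retained CEBPB probe, A_23_P143242, was well above background in 5 channels. It had 1.503 in EV and 2.111 in miR-155-sp cells, so whether CEBPB reached 2 in EV cells depended on the probe. CSF1R, a myeloid receptor that Hodgkin cells are known to express, had 1.20 and GATA3 1.12. At the low end TCF7 had 0.608, ID3 0.974 and MSC 0.995. ID3, an E protein inhibitor like ID2, was thus near 1.

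Of 21 B-cell genes that these factors are known to activate, 20 had a probe, 10 were detected and 7 were in no channel. Among the 7 were the B-cell receptor gene CD79B and the surface antigens CD22 and CD72. The 8 retained probes had a median log2 IP/T of -0.45 in EV cells and 0 of them reached an IP/T of 2 in either population. Of the probes in all 8 channels, IGLL1 had 0.819 and LYN, a kinase of the B-cell receptor pathway, 0.785. CD79A had 0.620, BLK 0.581 and SYK, another kinase of this pathway, 0.460. VPREB3, a protein that associates with the pre-B-cell receptor, was the only retained probe of the 5 lists whose IP/T changed 2-fold with the sponge, from 0.756 to 0.353, a log2 change of -1.10 (-1.30 and -0.89). It was well above background in 5 of 8 channels, and its total RNA changed by 0.17 in Cy3 and 1.19 in Cy5.

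Of 13 plasma cell genes all had a probe, 9 were detected and CD38 and TNFRSF17 were in no channel. Of the 9 retained probes 2 passed this limit in EV cells, 2 were at 0.5 or less and the median log2 IP/T was 0.19. HERPUD1, an endoplasmic reticulum stress gene, had 4.67 and SDC1, the plasma cell surface proteoglycan, 2.49 in EV cells. FKBP11 had 1.74 and ELL2 1.71. At the low end PRDX4 had 0.974, DERL3 0.759 and XBP1, the factor that drives the secretory program, 0.494 and 0.435 with its probes. This SDC1 probe, well above background in 6 channels, had 3.74 (4.72 and 2.95) in miR-155-sp cells. Another SDC1 probe was well above background in no channel.

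Of 12 corepressors of BCL6 and PRDM1 all were detected. Their 18 retained probes had a median log2 IP/T of -0.46, 0 of them passed the limit of 2 in EV cells and 3 were at 0.5 or less. NCOR1 had 1.88 and 1.71 with 2 of its probes and 0.464 with another, which was well above background in 5 channels. MTA3 had 1.06. At the low end KDM1A had 0.549, TLE1 0.541 and CTBP1 0.483 with its lowest probe. The other CTBP1 probes had 0.578 and 0.741. No retained probe of the 5 lists changed 2-fold in total RNA.

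The genes whose 8 signals followed POU2F1 A_23_P424002 most closely were ONECUT2, SEMA7A and ZNF273. Likeness was the Euclidean distance over the 8 channels after each probe's mean was subtracted, and it was 0.242, 0.253 and 0.287 log2 units. Their IP/T ratios in EV and miR-155-sp cells were 5.23 and 6.42, 5.17 and 6.81, and 5.74 and 7.41. The genes nearest to TCF3 A_23_P67708, the retained probe with the lowest IP/T, were DDX39A at 0.130, SNRPC at 0.141 and RPS3A at 0.145. Their IP/T ratios in EV cells were 0.849, 0.876 and 0.935.

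Promoter windows from RefSeq (GRCh38.p14, 250 bases before to 50 after a start) were read for the motifs that the factors themselves bind, since several members are known to act on each other's genes. They cover 9 of the 10 genes with 13 windows, POU2AF1 being the one not listed. The octamer ATTTGCAT, read on both strands, is in 1 of the 13 windows, that of a POU2F1 start, and in 1.77% of all 35116 windows. The E-box CAGGTG is in 1 of the 13, that of a PRDM1 start, and in 20.6% of all windows. The BCL6 motif TTCCTAGAA is in 1 of the 13, that of BCL6 itself, and in 0.373% of all windows. The stretches around the first pair of matches are printed 5′ to 3′ with the motif in capitals, chr1:167328861-167328928 for POU2F1 and chr6:106086216-106086281 for PRDM1, both on the plus strand. The octamer begins at position -179 relative to the POU2F1 start and the E-box at position -90 relative to the PRDM1 start, and both genes have other annotated starts. A match describes the letters only, and the arrays hold no measurement of binding.
POU2F1 window: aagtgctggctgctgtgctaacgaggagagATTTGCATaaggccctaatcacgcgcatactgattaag
PRDM1 window: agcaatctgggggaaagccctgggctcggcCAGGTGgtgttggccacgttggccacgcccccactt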

How the data were processed

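Total RNA and Ago2-IP RNA of EV and miR-155-sp KM-H2 cells were hybridized to 4 Agilent human 44k arrays with swapped dyes. The deposited scanner files hold spot intensity values, which per the file headers came from Agilent Feature Extraction 10.7.3.1 (10.5.1.1 in the submitters' processing notes), with background subtracted and dyes normalized within each array. The authors also deposited log2 values, quantile-normalized and filtered. These served as an alternative.

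Outlier spots were dropped. Following the study's methods, quantile normalization of the log2 processed signals spanned all 8 channels, and probes were retained if well above background in at least 4 channels and within 2-fold between labellings of each sample (17912 of 40981 probes). The mean of the labellings was taken, and log2 IP/T is IP minus total. Quantile normalization sets aside overall differences between fractions, and signals near background distort ratios. With 1 sample per group no test was made. Counts are set beside the share of all retained probes where that share was taken. The number of arrays limits precision.

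Probes were named through RefSeq or Ensembl identifiers (GRCh38.p14 table, 23958 of 41000 matched). Since the array design used hg18, no probe coordinates are printed. Members and lists were chosen with earlier results of these data known. All member probes were named, with the 3 highest and 3 lowest probes of each list by IP/T in EV cells among those in all 8 channels and any 2-fold change. Other list genes were named after their values were seen. Alternatives were a common median, normexp (offset 50, limma 3.58.1, R 4.3.3) with loess or quantile normalization, other filters, single labellings or orientations, and gene means. Normexp on the 10 probes retained without it was added after seeing the data. Other steps used pandas 2.3.3 and numpy 2.4.6 under Python 3.11.15. The code was tested on simulated data. One marker gene is not reported here.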

Additional observations from a re-analysis of the deposited data

How the results depend on the processing

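Background correction moved the IP/T most, and the cause was not tested. No share of all probes at an IP/T of 2 was taken under the settings below. Whether the counts given here exceed such a share is therefore not known. With normexp, 11 probes passed the filters, POU2AF1 among them. With loess these had a median log2 IP/T of 0.55 in EV and 0.70 in miR-155-sp cells, their median change of total RNA was 0.013, and 3 and 2 probes reached an IP/T of 2. With quantile normalization these values were 0.71, 0.63, 0.027, 1 and 2. On the 10 probes retained without normexp, a choice made after seeing the data, normexp with loess gave 0.57, 0.65, 0.012, 3 and 2, with a median change of IP/T of -0.058, and normexp with quantile normalization gave 0.59, 0.62, 0.041, 1 and 1. Probes well above background in all 8 channels gave 0.81, 0.79, -0.036, 3 and 3, and a median change of IP/T of -0.070, since the dim EBF1 and POU2F2 probes drop out. Without the filter on agreement, which adds POU2AF1, the medians were 1.02 in EV and 1.16 in miR-155-sp cells, 0.25 for the change of IP/T and -0.077 for total RNA. With labellings within 1.5-fold they were 0.94, 0.87, -0.047 and -0.077. Gene means gave 1.10 and 1.35, and -0.14 for total RNA. A common median gave 0.92 in EV cells and -0.14 for total RNA. Arrays with IP in Cy5 alone gave 0.90 in EV cells, and those with IP in Cy3 alone 0.85, with -0.072 for total RNA. With either labelling left out, the medians ran from 0.92 to 0.93 in EV cells, from 0.76 to 1.13 in miR-155-sp cells, from -0.09 to 0.10 for the change of IP/T and from -0.091 to -0.072 for total RNA, and the counts from 4 to 5 in EV and from 3 to 5 in miR-155-sp cells. The deposited log2 values, which hold all 10 retained probes and differ by at most 0.0165, and the absence of a detection filter left all of these medians and counts in place. No paired analysis was possible because the replicate numbers stand for dye labellings of 1 RNA and no result comes from a test. The Cy5 channels had fewer spots well above background than the Cy3 channels, which limits EBF1, POU2F2 and POU2AF1.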
